A study of Mus musculus with 15 samples.

Results

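The p53 list holds 35 mouse genes, the transcription factor gene Trp53 and 34 genes listed here as its targets or partners. The kinase gene Plk2 is among them. Control by p53 was not tested for any of these genes in these cells. They were chosen by gene symbol, through the Ensembl identifiers of the count table, and make up 35 of its 57186 genes. Of these, 34 were among the 19839 genes tested, and Perp, which had 0 to 3 counts per library, was not. The rule names genes by symbol and uses no measured value, but the list was drawn up with earlier results of these data known.

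The p53 protein is a transcription factor that is held at a low level by the ubiquitin ligase Mdm2 and accumulates when DNA is damaged or a cell is stressed. It then raises genes that halt the cell cycle, repair DNA, adjust metabolism or lead to cell death, together with genes such as Mdm2 that limit it again. Much of its control lies in the stability and modification of the protein, so that the Trp53 transcript need not move when its targets do. Several targets, Plk2, the Gadd45 genes, Fas and Btg2 among them, also respond to other stress and inflammatory factors in macrophages.

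RAW 264.7 cells, a mouse macrophage line, were left untreated (Control) or were exposed for 6 h to silica nanoparticles (SNPs), with 3 libraries of poly(A) RNA per group and 15 in all. SNP100 are nonporous particles of nominally 100 nm, given at 50 µg/mL, and SNP50 are nonporous particles of nominally 50 nm, given at 25 µg/mL. MSNP are mesoporous and HMSNP are hollow mesoporous particles, both of nominally 100 nm and both given at 200 µg/mL. All groups come from 1 cell line, and the study chose each dose as the highest that was not toxic. HMSNP can therefore be set against MSNP at 1 dose by mass, whereas against SNP100 and SNP50 the particle and the dose cannot be told apart. The paper proposes that the low density and the surface of HMSNP could slow their uptake. Particle number and uptake were not compared here and cannot be told apart from particle type. The labels do not say that replicates came from separate cultures, so the p-values measure only the spread between these samples, which may be technical. The numbers that open the library names differ between the groups, and whatever they stand for cannot be told apart from treatment.

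The 15 libraries held 29369934 to 42617812 counts. Of 10 macrophage markers, 9 lay at 23.1 CPM (read counts scaled to library size) or above in every library, led by Lyz2 at 8928 to 15071 CPM, and Mrc1 lay at 0.286 to 2.02 CPM. The markers summed to 13470 to 14430 CPM in MSNP and 16110 to 20390 CPM in Control, sums made up mostly of Lyz2. The Lyz2 value of 15071 CPM came from Control replicate 3. Single markers went both ways in MSNP against Control. At an adjusted p under 0.05 in edgeR, Cd68, Fcgr3 and Mrc1 were higher (log2 fold change 0.68, 0.89 and 1.96). Csf1r, Cd14, Itgam and Lyz2 were lower (-0.65, -0.78, -0.46 and -0.39). The part of these differences in the results was not tested. Marker lists of T cells, B cells, fibroblasts and epithelial cells each summed to at most 0.397 CPM in a library, with Ms4a1, Cd8a, Col1a2, Epcam and Krt18 at 0 counts throughout. The highest of these sums, in MSNP, came from Cd4. Control replicate 3 stood apart from the other controls by transcript length. Its log2 difference from the mean of the other 2 controls had a median of 0.61 in the shortest 10% of 10652 genes and of -0.60 in the longest 10%.

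HMSNP-treated cells had 9 members of the p53 list above Control and 4 below it, by the quasi-likelihood test of edgeR (p adjusted over all 19839 genes after Benjamini and Hochberg, threshold 0.05). Over all tested genes, 2.46% were called higher and 2.7% lower in this comparison. MSNP had 8 members above and 8 below Control, where 11.8% of all genes were called higher and 11% lower. SNP100 had 1 member above and 2 below Control, against 0.509% and 0.403% of all genes, and SNP50 had 1 above and 4 below, against 0.454% and 0.958%. For the 34 members the median log2 fold change was 0.07 with HMSNP, where that of all tested genes was -0.04. The median was -0.04 with MSNP (all genes -0.05), -0.10 with SNP100 (all genes -0.02) and -0.04 with SNP50 (all genes -0.0017). The comparisons share the Control libraries. None of the 5 calls in SNP50 held when any 1 SNP50 library was left out, and none of the 3 in SNP100 without SNP100 replicate 2. In all, 20 members passed the edgeR test in at least 1 of 7 comparisons and 14 in none. Of these 14, 10 had an unadjusted p under 0.05 in some comparison, and 8 were called in some comparison by DESeq2, Trp53 in MSNP and Gadd45g and Rps27l in HMSNP among them. The shares of all tested genes that passed in at least 1 comparison, or in none, were not counted. The share of all tested genes with an unadjusted p under 0.05 was not counted either, so the 10 have no background beside them. In edgeR, MSNP against Control alone had 22.8% of all genes called and HMSNP against MSNP 20.2%.

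**Figure D1:**
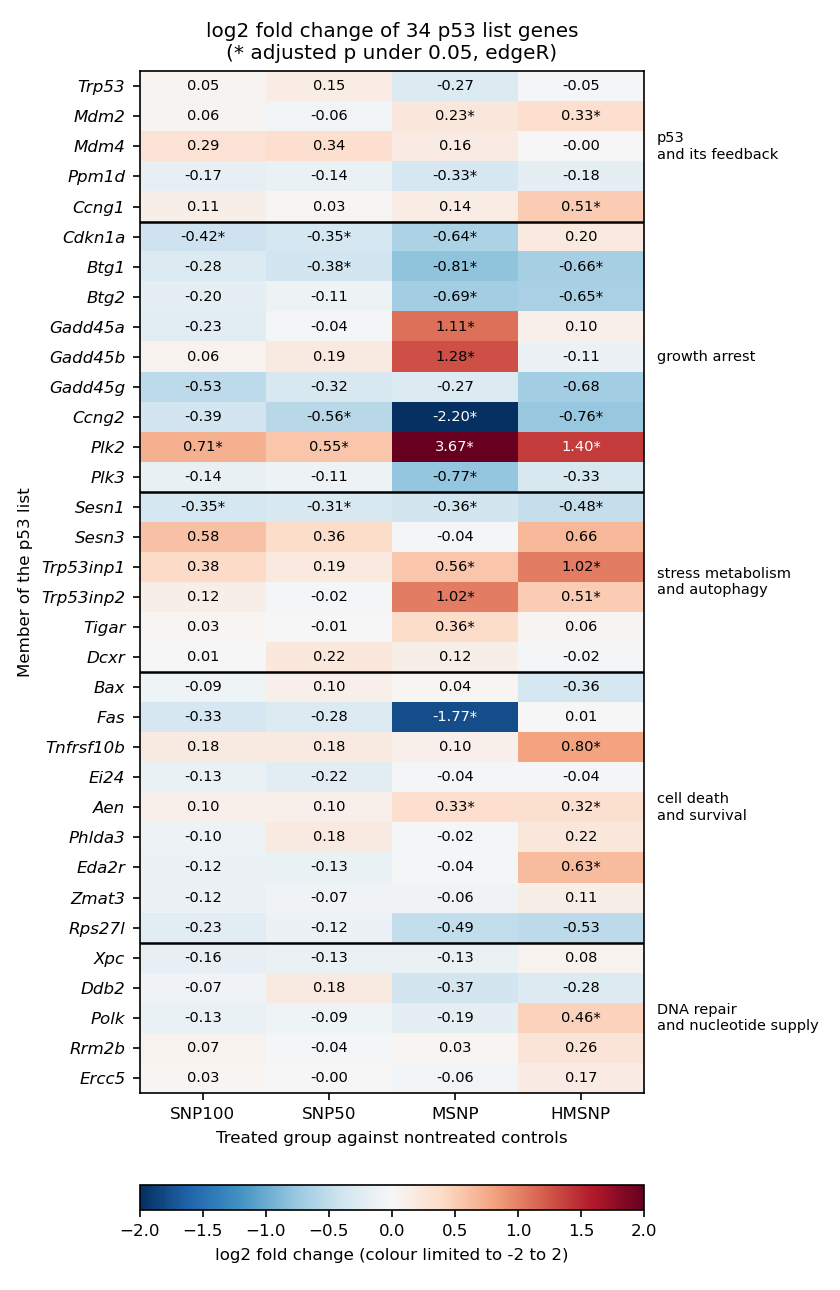
Fitted log2 fold change of the 34 tested members (rows, grouped by role) in each treated group against the nontreated controls (columns, 3 libraries per group). Colours are limited to -2 to 2 and asterisks mark an adjusted p under 0.05 in edgeR. Of the rows with an asterisk in all 4 groups, Plk2 is higher, from 0.55 in SNP50 to 3.67 in MSNP, and Sesn1 is lower.

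Promoter sequences are shown for 4 members on which the results turn, because Cdkn1a, Mdm2 and Ccng1 carry letters of the p53 recognition sequence in the window searched and Plk2 does not. The p53 half-site is a 10-base sequence, and the full p53 response element searched for was a pair of half-sites with a spacer of 0 to 13 bases. RefSeq promoters (250 bases before to 50 after a start, table build GRCm38.p6) were given for 28 of the 35 members, with 34 promoters, and were searched on both strands. Capitals mark the half-sites, or in Plk2 the CRE half-site TGACG and its reverse complement, which overlap by 2 bases. Positions count from the RefSeq start, and the sequences were placed on GRCm39 by exact match, written 5′ to 3′ on the gene's strand.
Cdkn1a (plus strand, chr17:29309703-29309935): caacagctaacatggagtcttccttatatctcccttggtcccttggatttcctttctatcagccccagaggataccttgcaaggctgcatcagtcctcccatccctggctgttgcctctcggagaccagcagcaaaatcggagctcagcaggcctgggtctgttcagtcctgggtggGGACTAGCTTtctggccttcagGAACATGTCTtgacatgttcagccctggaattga
Mdm2 (minus strand, chr10:117546731-117546913): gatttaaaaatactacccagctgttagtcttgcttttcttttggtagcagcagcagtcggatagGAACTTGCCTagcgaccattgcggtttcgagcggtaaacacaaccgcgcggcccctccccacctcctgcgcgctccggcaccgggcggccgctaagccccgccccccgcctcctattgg
Ccng1 (minus strand, chr11:40646149-40646363): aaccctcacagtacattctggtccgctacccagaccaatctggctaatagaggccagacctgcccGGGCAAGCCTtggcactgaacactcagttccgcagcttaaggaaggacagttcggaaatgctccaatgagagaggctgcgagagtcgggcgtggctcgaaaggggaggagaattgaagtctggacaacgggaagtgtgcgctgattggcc
Plk2 (plus strand, chr13:110531505-110531534): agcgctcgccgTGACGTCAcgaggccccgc
The pair in Cdkn1a spanned positions -73 to -42, which lies before the more upstream of 2 starts in the table. Only exact matches are in capitals. The 10 bases directly after the second half-site of Cdkn1a miss the searched pattern at their first base only, and so stay in lower case. The half-site of Mdm2 began at -186 and that of Ccng1 at -185. In GENCODE the first 3 windows end at the base before the gene. The 30 bases of Plk2, with capitals at positions -62 to -55, lie inside the annotated gene, which starts at 110531015. A half-site was found in 12 of the 28 members (42.9%) and in 9.55% of all 27025 genes with a promoter. The 12 were Aen, Bax, Ccng1, Cdkn1a, Ei24, Gadd45a, Mdm2, Polk, Ppm1d, Rps27l, Sesn1 and Trp53. Cdkn1a was the only one of the 28 members with the full element, which 0.074% of all genes with a promoter hold. TGACG was found in 12 of the 28 members (42.9%) and in 23% of all genes with a promoter, and the AP-1 motif TGACTCA in 2 members, Fas and Mdm4 (7.14%), and in 5.95% of all genes. The TGACG members were Btg1, Btg2, Ercc5, Mdm2, Plk2, Plk3, Polk, Ppm1d, Rps27l, Sesn1, Tigar and Trp53inp2. Of these, Mdm2, Polk, Ppm1d, Rps27l and Sesn1 also had a p53 half-site. These matches describe letters in short windows and were not tested for binding.

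Among p53 and the genes that feed back on it, Mdm2 and Ccng1 rose in HMSNP, whereas Trp53 itself passed the test in no comparison. Trp53 (chr11:69469669-69482701) had 186, 179.6 and 243 CPM in Control, 201, 203 and 226 CPM in SNP100, and 229, 223 and 224 CPM in SNP50. In MSNP the values were 162, 167 and 175 CPM, and in HMSNP 196, 194 and 200.3 CPM. The HMSNP libraries lay within the range of the controls and the MSNP libraries lay below it. The log2 fold change of Trp53 was -0.05 (SE 0.0940, adjusted p = 0.803) in HMSNP and -0.27 (SE 0.0942, adjusted p = 0.0519) in MSNP. Alternative settings that called Trp53 lower in MSNP were DESeq2, a stricter filter on low counts, a replicate block and a length correction. So did leaving out Control replicate 1 or 2, but not leaving out Control replicate 3 alone. Without Control replicate 3 it was called in SNP100 and SNP50. Some settings also called Trp53 in HMSNP against MSNP or SNP50. Its exons share 263 bases with Wrap53 on the other strand, which had 404 to 760 counts beside 4915 to 9317 for Trp53. The use of strand in counting is not given in the sources used here.

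Mdm2 (chr10:117524780-117546730), which encodes the ligase that marks p53 for degradation, had 139.9, 134 and 113 CPM in Control and 165, 156 and 164 CPM in HMSNP. Its values were 135, 135 and 132 CPM in SNP100, 125, 119 and 127 CPM in SNP50, and 151, 151 and 152 CPM in MSNP. All MSNP and HMSNP libraries lay above every control. The log2 fold change was 0.33 (SE 0.0730, adjusted p = 0.0170) in HMSNP and 0.23 (SE 0.0730, adjusted p = 0.0328) in MSNP, and the difference of HMSNP from MSNP, 0.10 (SE 0.0728, adjusted p = 0.429), did not pass the test. Without HMSNP replicate 1 the adjusted p in HMSNP was 0.0851, and without HMSNP replicate 3 it was 0.0669, in a range of 0.000857 to 0.374 over 23 alternative settings. The call in MSNP was lost in 11 of the 23 settings, among them leaving out any 1 MSNP library, and with a length correction and without Control replicate 3 the log2 fold change was 0.11.

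Ccng1 (chr11:40639377-40646148) encodes cyclin G1, a p53 target that recruits a phosphatase to Mdm2. Control libraries held 157, 159 and 136 CPM of it, SNP100 libraries 168, 157 and 163 CPM, and SNP50 libraries 153, 151 and 155 CPM. MSNP libraries held 165, 168 and 165 CPM and HMSNP libraries 227, 210.1 and 207 CPM. The 3 HMSNP libraries lay above all 12 others. Ccng1 rose in HMSNP by a log2 value of 0.51 (SE 0.0678, adjusted p = 0.000381), and no other treated group passed the test against Control. Its exons share 114 bases with Nudcd2 on the other strand, a gene of 2227 to 4028 counts beside 4538 to 9026 for Ccng1. Ppm1d, the phosphatase that turns p53 signalling down, fell in MSNP from a mean of 33.3 ± 4.61 CPM (SD, n = 3) in Control to 26.6 ± 0.423 CPM, a log2 value of -0.33 (SE 0.0828, adjusted p = 0.00882). Mdm4, the partner of Mdm2, ranged from 35.0 to 74.3 CPM and passed in no comparison. Its lowest value came from Control replicate 3, where this gene of 20386 exon bases stood at -0.80 (log2) relative to the mean of the other controls.

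**Figure D2:**
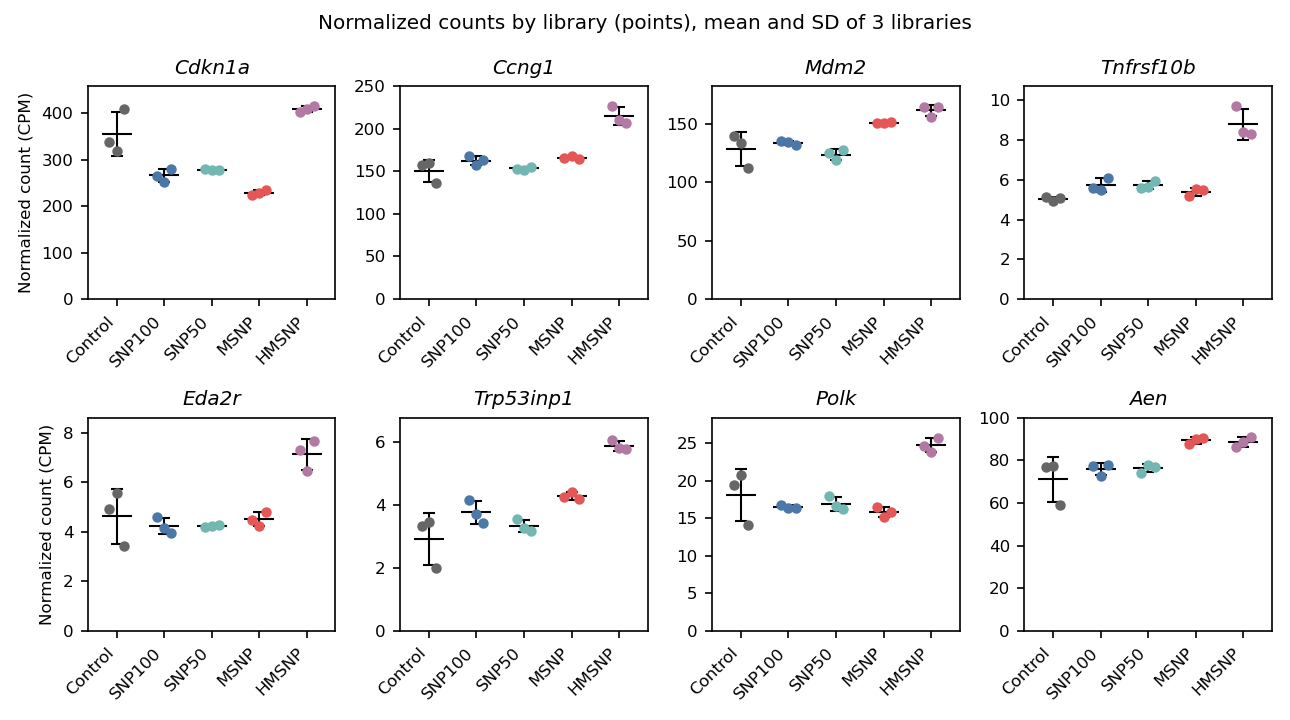
Normalized counts (CPM, scaled by TMM) of 8 members (1 panel each, vertical axes from 0) in the 5 groups. Points are libraries, and lines and bars are the mean and SD of 3 libraries. In the panels of Ccng1, Tnfrsf10b, Eda2r, Trp53inp1 and Polk the HMSNP points lie above those of every other group, and in the panel of Cdkn1a they reach 402 to 415 CPM while SNP100, SNP50 and MSNP lie at or below 280.5 CPM.

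The growth arrest members split. Cdkn1a fell in SNP100, SNP50 and MSNP but not in HMSNP, Plk2 rose in all 4 treated groups, Gadd45a and Gadd45b rose in MSNP, and Btg1, Btg2 and Ccng2 fell in both MSNP and HMSNP. Cdkn1a (chr17:29309936-29319701) encodes p21, the cyclin-dependent kinase inhibitor that is the classical arrest target of p53. Its levels were 337, 319 and 409 CPM in Control, 265, 252 and 280.5 CPM in SNP100, and 279.2, 277 and 277 CPM in SNP50. In MSNP they were 223, 228 and 234 CPM, and in HMSNP 402, 408 and 415 CPM. SNP100, SNP50 and MSNP lay below every control, and HMSNP overlapped the controls through Control replicate 3 only. The log2 fold changes were -0.42 in SNP100 (SE 0.0793, adjusted p = 0.0209), -0.35 in SNP50 (SE 0.0792, adjusted p = 0.0433) and -0.64 in MSNP (SE 0.0795, adjusted p = 2.2e-05). The call in SNP50 was lost in 14 of 23 alternative settings and that in SNP100 in 3, while that in MSNP was kept in all 23. In HMSNP the value was 0.20 (SE 0.0791, adjusted p = 0.144), and without Control replicate 3 it was 0.32 (adjusted p = 0.000276). Over the 23 alternatives this adjusted p ran from 8.69e-05 to 0.508, and 3 of them called Cdkn1a higher. The antisense gene Dino, which shares 504 exon bases with Cdkn1a, had 0 to 7 counts per library beside 6741 to 18093 for Cdkn1a. In bulk libraries such as these, fewer cells with a transcript and less of it per cell cannot be told apart.

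Plk2 (chr13:110531015-110537379) encodes polo-like kinase 2, a stress-induced kinase of centriole duplication and of S phase checkpoints. It stood at 4.32, 4.31 and 3.10 CPM in Control, 6.40, 6.45 and 6.31 CPM in SNP100, and 6.11, 5.98 and 4.99 CPM in SNP50. The values were 9.61, 11.0 and 10.1 CPM in HMSNP and 50.9, 49.7 and 48.3 CPM in MSNP. Every treated library lay above every control, and the MSNP, HMSNP and nonporous groups did not overlap one another. The log2 fold change was 0.71 (SE 0.119, adjusted p = 0.00821) in SNP100, 0.55 (SE 0.121, adjusted p = 0.0402) in SNP50, 1.40 (SE 0.116, adjusted p = 4.07e-06) in HMSNP and 3.67 (SE 0.119, adjusted p = 1.89e-11) in MSNP. These are fold changes of 2.63 in HMSNP and 12.7 in MSNP. Both of these calls were kept in all 23 alternative settings, whereas the call in SNP50 was lost in 13, with an adjusted p of up to 0.683, and that in SNP100 in 2. Plk2 lay lower in HMSNP than in MSNP by a log2 value of -2.27 (SE 0.109, adjusted p = 8.4e-10), at the same dose by mass. Plk3 (chr4:116985852-116991226), a related kinase, moved the other way in MSNP. It had 36.4, 27.6 and 32.3 CPM in Control, 26.7, 31.3 and 29.1 CPM in SNP100, 30.9, 28.0 and 30.7 CPM in SNP50, 17.1, 17.6 and 21.96 CPM in MSNP and 24.1, 23.9 and 28.7 CPM in HMSNP. Its log2 fold change was -0.77 (SE 0.120, adjusted p = 0.000205) in MSNP and -0.33 (SE 0.118, adjusted p = 0.121) in HMSNP.

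Gadd45a (chr6:67012070-67014441) and Gadd45b (chr10:80764523-80768038) encode small stress proteins that act on p38 and JNK signalling and on cell cycle kinases. Gadd45a had 2.68, 2.54 and 3.75 CPM in Control, 3.17, 1.85 and 2.66 CPM in SNP100, 3.34, 2.55 and 2.91 CPM in SNP50, 6.35, 6.77 and 6.28 CPM in MSNP and 2.997, 3.53 and 3.12 CPM in HMSNP. Gadd45b had 7.28, 6.33 and 8.41 CPM in Control, 7.15, 8.06 and 7.84 CPM in SNP100, 8.88, 8.30 and 7.90 CPM in SNP50, 18.9, 17.4 and 17.3 CPM in MSNP and 6.55, 6.52 and 7.31 CPM in HMSNP. For both genes the MSNP libraries lay above all others and the HMSNP libraries overlapped the controls. The rise in MSNP was 1.11 (SE 0.180, adjusted p = 0.000282) for Gadd45a and 1.28 (SE 0.102, adjusted p = 1.79e-07) for Gadd45b on the log2 scale. The third family member, Gadd45g, ranged from 9.26 to 21.5 CPM and passed in no comparison in edgeR. Its HMSNP libraries lay below every control, with a log2 fold change of -0.68 (SE 0.189, adjusted p = 0.0525), and 9 of 23 alternative settings called it lower (range of the adjusted p 0.00575 to 0.392). Over these settings the log2 fold change ran from -0.84 to -0.29. The SNP100 libraries also lay below every control (log2 fold change -0.53, adjusted p = 0.315 in edgeR). Control replicate 3 exceeded the mean of the other controls by 0.85 (log2) for this gene of 1177 exon bases.

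Btg1 (chr10:96452861-96458671) and Btg2 (chr1:134002908-134015033) encode antiproliferative proteins that bind the mRNA deadenylation machinery. Btg1 had 276, 259 and 314 CPM in Control, 232, 224 and 246 CPM in SNP100, 214, 219 and 219 CPM in SNP50, 163, 162 and 159 CPM in MSNP and 178, 178 and 181 CPM in HMSNP. All treated libraries were below all controls. Its log2 fold change was -0.66 (SE 0.0688, adjusted p = 3.7e-05) in HMSNP, -0.81 (SE 0.0690, adjusted p = 3.78e-07) in MSNP and -0.38 (SE 0.0686, adjusted p = 0.0125) in SNP50. Btg2 had 18.8, 16.3 and 20.2 CPM in Control, 16.4, 14.997 and 16.8 CPM in SNP100, 17.0, 16.2 and 18.2 CPM in SNP50, 10.3, 11.4 and 12.6 CPM in MSNP and 11.0, 12.6 and 11.7 CPM in HMSNP. It fell by 0.65 in HMSNP (SE 0.0987, adjusted p = 0.00123) and by 0.69 in MSNP (SE 0.0993, adjusted p = 9.21e-05) on the log2 scale. Ccng2 (chr5:93415116-93424095) encodes cyclin G2, which is high in resting cells and is also a target of FoxO factors. Its values were 7.70, 6.27 and 7.0025 CPM in Control, 5.18, 5.31 and 5.54 CPM in SNP100, 4.42, 5.02 and 4.77 CPM in SNP50, 1.32, 1.73 and 1.48 CPM in MSNP and 4.26, 3.85 and 4.26 CPM in HMSNP. MSNP was the lowest group and HMSNP the next, with no overlap between them. The log2 fold change was -2.20 (SE 0.121, adjusted p = 2.9e-09) in MSNP, -0.76 (SE 0.108, adjusted p = 0.000713) in HMSNP and -0.56 (SE 0.108, adjusted p = 0.0191) in SNP50. In SNP50 the call of Btg1 was lost in 4 and that of Ccng2 in 5 of 23 alternative settings.

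**Figure D3:**
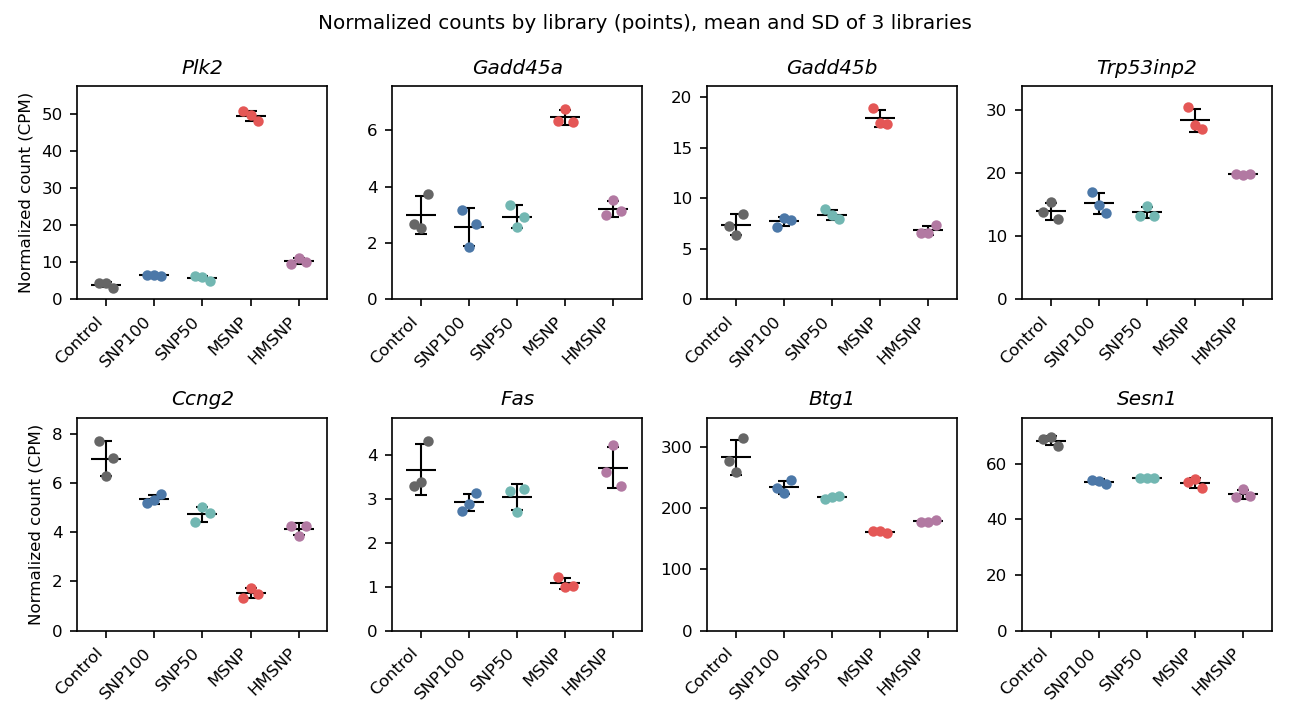
Normalized counts (CPM, scaled by TMM) of 8 further members (1 panel each, vertical axes from 0) by group, with libraries as points and the mean and SD of 3 libraries as lines and bars. The MSNP points lie highest for Plk2, Gadd45a, Gadd45b and Trp53inp2 and lowest for Ccng2, Fas and Btg1, and all treated points of Btg1 and Sesn1 lie below the controls.

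Among the stress metabolism and autophagy members, Trp53inp1 and Trp53inp2 rose in MSNP and HMSNP, and Sesn1 fell in all 4 treated groups. Trp53inp1 (chr4:11156412-11175230) encodes a protein that promotes p53 phosphorylation and autophagy. It lay at 3.32, 3.47 and 1.98 CPM in Control, 4.16, 3.73 and 3.43 CPM in SNP100, and 3.54, 3.26 and 3.17 CPM in SNP50. The values rose to 4.26, 4.43 and 4.18 CPM in MSNP and to 6.08, 5.81 and 5.80 CPM in HMSNP, both above every control. Trp53inp1 had a log2 fold change of 1.02 (SE 0.159, adjusted p = 0.00144) in HMSNP, a 2.02-fold change, and 0.56 (SE 0.162, adjusted p = 0.0210) in MSNP. Control replicate 3 held the lowest value, and without it the log2 fold change in HMSNP was 0.79 (adjusted p = 7.93e-05, range over the alternatives 2.14e-07 to 0.154).

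Trp53inp2 (chr2:155222979-155232718), whose product takes part in autophagosome formation, followed the other order. It had 13.8, 15.4 and 12.7 CPM in Control, 17.0, 14.9 and 13.7 CPM in SNP100, 13.3, 14.7 and 13.3 CPM in SNP50, 30.5, 27.7 and 27.0 CPM in MSNP and 19.95, 19.8 and 19.9 CPM in HMSNP. Its log2 fold change was 1.02 (SE 0.0939, adjusted p = 8.64e-07) in MSNP and 0.51 (SE 0.0938, adjusted p = 0.00499) in HMSNP. The exons of Trp53inp2 share 144 bases with Ncoa6 on the other strand, which had 967 to 3283 counts beside 393 to 1028 for Trp53inp2. Sesn1 (chr10:41685931-41784423) encodes sestrin 1, an inhibitor of mTORC1. Its levels were 68.8, 69.6 and 66.4 CPM in Control, 54.3, 54.0 and 52.6 CPM in SNP100, 54.9, 55.0 and 55.1 CPM in SNP50, 53.6, 54.5 and 51.2 CPM in MSNP and 47.9, 50.9 and 48.4 CPM in HMSNP. No treated library reached a control, and the HMSNP libraries were the lowest. The log2 fold change was -0.48 (SE 0.0561, adjusted p = 0.000126) in HMSNP, -0.36 in MSNP (adjusted p = 0.000181), -0.35 in SNP100 (adjusted p = 0.00648) and -0.31 in SNP50 (adjusted p = 0.0125). For Sesn1 6 of 23 alternative settings lost the call in SNP50 and 3 that in SNP100.

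Tigar (chr6:127062079-127086545), whose product lowers glycolytic flux, had 57.5, 63.6 and 59.3 CPM in Control, 61.6, 60.6 and 62.3 CPM in SNP100, 58.1, 61.9 and 59.7 CPM in SNP50, 79.5, 76.8 and 75.5 CPM in MSNP and 62.2, 63.9 and 61.8 CPM in HMSNP. It rose in MSNP only among the comparisons with Control, by a log2 value of 0.36 (SE 0.0590, adjusted p = 0.000294). Dcxr, a sugar reductase, ranged from 7.40 to 13.4 CPM, and Sesn3, a further sestrin, from 1 to 12 counts per library. Neither passed in any comparison, and for Sesn3 the depth limits what could be seen.

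The cell death and survival members included 3 that rose in HMSNP, which were Tnfrsf10b and Eda2r of the TNF receptor family and the nuclease gene Aen. Tnfrsf10b (chr14:70004916-70021860) encodes the mouse receptor for the death ligand TRAIL. It stood at 5.12, 4.94 and 5.10 CPM in Control, 5.59, 5.50 and 6.12 CPM in SNP100, 5.57, 5.64 and 5.95 CPM in SNP50, 5.19, 5.56 and 5.48 CPM in MSNP and 9.70, 8.43 and 8.29 CPM in HMSNP. The HMSNP libraries lay above all 12 others. Tnfrsf10b rose in HMSNP by 0.80 (SE 0.0879, adjusted p = 6.49e-05) on the log2 scale, a 1.74-fold change. Control replicate 3 differed from the other controls by 0.02 (log2) for this gene. Eda2r (chrX:96320270-96420847), the gene of the ectodysplasin A2 receptor, had 4.90, 5.58 and 3.41 CPM in Control, 4.605, 4.14 and 3.96 CPM in SNP100, 4.19, 4.22 and 4.26 CPM in SNP50, 4.46, 4.24 and 4.802 CPM in MSNP and 7.29, 6.44 and 7.68 CPM in HMSNP. Again HMSNP did not overlap any other group. Eda2r rose in HMSNP by 0.63 (SE 0.143, adjusted p = 0.0200) against Control, with an adjusted p of 0.0823 without HMSNP replicate 1 and of 0.0882 without HMSNP replicate 3 (range over the alternatives 0.00175 to 0.333).

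Aen (chr7:78545602-78560957), a p53-induced nuclease that acts in apoptosis, rose in both porous groups. The libraries had 76.8, 77.4 and 59.1 CPM in Control, 77.6, 72.9 and 77.8 CPM in SNP100, 74.1, 77.8 and 76.9 CPM in SNP50, 87.7, 90.0 and 90.8 CPM in MSNP and 86.5, 88.5 and 91.2 CPM in HMSNP. For Aen this was a log2 fold change of 0.32 (SE 0.0865, adjusted p = 0.0469) in HMSNP and 0.33 (SE 0.0866, adjusted p = 0.0112) in MSNP. HMSNP differed from MSNP by -0.01 (SE 0.0863, adjusted p = 0.955). The call in HMSNP against Control was lost in 16 of 23 alternative settings. Fas (chr19:34268001-34305173), the gene of the receptor for Fas ligand, had 3.29, 3.38 and 4.32 CPM in Control, 2.73, 2.88 and 3.13 CPM in SNP100, 3.17, 2.69 and 3.23 CPM in SNP50, 1.22, 0.999 and 1.01 CPM in MSNP and 3.61, 4.22 and 3.30 CPM in HMSNP. It fell in MSNP by 1.77 (SE 0.159, adjusted p = 6.83e-07) on the log2 scale, while HMSNP overlapped Control with a log2 fold change of 0.01 (SE 0.139, adjusted p = 0.997).

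Of the other death and survival members, Bax, the pore-forming effector of apoptosis, ranged from 166 to 312 CPM, Ei24 from 86.5 to 115 CPM, Phlda3, an inhibitor of Akt, from 20.7 to 36.2 CPM, and Zmat3, an RNA-binding protein gene, from 50.3 to 62.8 CPM. Rps27l ranged from 105 to 234 CPM and shares sequence with Rps27 and related copies, so its counts are uncertain. These 5 genes passed the edgeR test in no comparison, and DESeq2 called Rps27l lower in MSNP and HMSNP and Bax, Ei24 and Zmat3 in comparisons of HMSNP with nonporous particles. The highest values of Bax, Phlda3 and Rps27l all came from Control replicate 3, which exceeded the mean of the other controls by 0.83, 0.72 and 0.95 (log2) for these short transcripts. Without that library Phlda3 had a log2 fold change of 0.51 (adjusted p = 0.000329) in HMSNP, against 0.22 (adjusted p = 0.374) with it, and the adjusted p ranged from 4.81e-05 to 0.679 over the alternatives.

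Of the DNA repair and nucleotide supply members, Polk (chr13:96617196-96679087), a translesion DNA polymerase gene, was the 1 that rose in HMSNP. It had 19.4, 20.7 and 14.1 CPM in Control, 16.8, 16.4 and 16.4 CPM in SNP100, 18.0, 16.6 and 16.2 CPM in SNP50, 16.5, 15.1 and 15.9 CPM in MSNP and 24.6, 23.9 and 25.8 CPM in HMSNP. The HMSNP libraries lay above all 12 others, and the log2 fold change against Control was 0.46 (SE 0.109, adjusted p = 0.0266). The adjusted p was 0.0912, 0.0661 and 0.0996 without HMSNP replicates 1, 2 and 3 in turn, and ranged from 0.00317 to 0.374 over the alternatives. Polk shares 94 exon bases with Cert1 on the other strand, a gene of 1591 to 3289 counts beside 499 to 1124 for Polk. Xpc and Ddb2, which recognise damage for nucleotide excision repair, ranged from 15.3 to 20.1 CPM and from 4.63 to 8.51 CPM. Ercc5, a repair nuclease gene, ranged from 14.4 to 18.1 CPM, and Rrm2b, the p53-regulated ribonucleotide reductase subunit, from 10.9 to 22.9 CPM. None of these 4 passed in any comparison in edgeR, and DESeq2 called Ercc5 in HMSNP against MSNP and Ddb2 in HMSNP against SNP50. Ddb2 shares 1617 exon bases with Acp2 on the other strand, which had 2059 to 4052 counts beside 140 to 286 for Ddb2.

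Set against MSNP at the same dose by mass, HMSNP had 9 members higher and 5 lower, where 9.22% of all tested genes were called higher and 11% lower. The higher members were Fas at a log2 difference of 1.79 (SE 0.159, adjusted p = 6.56e-07), Ccng2 at 1.44 (SE 0.123, adjusted p = 4.49e-07), Cdkn1a at 0.84 (SE 0.0797, adjusted p = 1.36e-06) and Tnfrsf10b at 0.70 (SE 0.0878, adjusted p = 2.48e-05). Smaller differences were those of Eda2r at 0.67, Polk at 0.64, Trp53inp1 at 0.46, Plk3 at 0.44 and Ccng1 at 0.37. The lower members were Plk2, Gadd45b at -1.39 (SE 0.102, adjusted p = 8.27e-08), Gadd45a at -1.01 (SE 0.178, adjusted p = 0.000628), Trp53inp2 at -0.52 and Tigar at -0.30. For Cdkn1a, Fas, Plk3, Gadd45a, Gadd45b and Tigar, MSNP differed from Control and HMSNP did not pass the test against Control. Trp53inp1 was near the threshold (adjusted p = 0.0496) and lost the call in 15 of 23 alternative settings. Trp53 was 0.23 higher in HMSNP than in MSNP (SE 0.0941, adjusted p = 0.118), which did not pass.

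**Figure D4:**
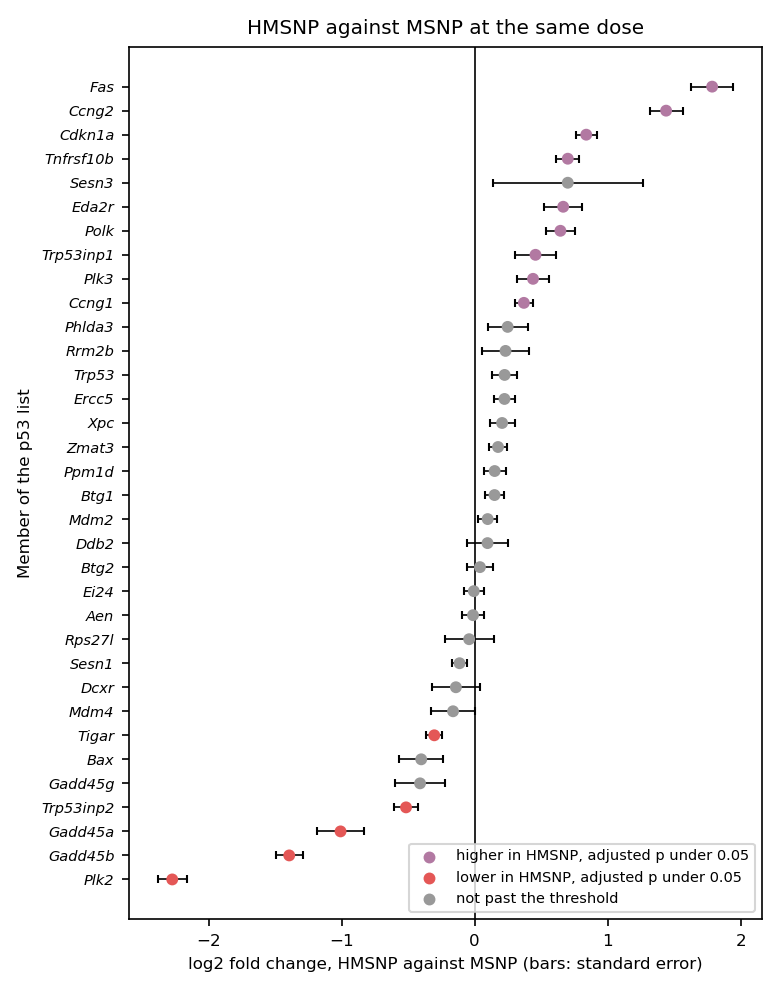
Fitted log2 difference of HMSNP from MSNP (horizontal axis, 3 libraries per group, both 200 µg/mL) for the 34 tested members, sorted by size, with bars of 1 standard error. Coloured points passed an adjusted p under 0.05 in edgeR. The values run from -2.27 for Plk2 to 1.79 for Fas, with 9 members higher and 5 lower.

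Against the nonporous particles, whose doses were lower, HMSNP had 9 members higher and 2 lower than SNP100, with 2.32% and 2.2% of all genes called, and 9 higher and 2 lower than SNP50, with 4.65% and 4.22% called. The lower members were Btg1 and Btg2 in both comparisons. The share of all tested genes called higher in HMSNP than in every other treated group was not counted. Among the members, Ccng1, Cdkn1a, Eda2r, Polk, Tnfrsf10b and Trp53inp1 were called higher in HMSNP than in each of MSNP, SNP100 and SNP50, comparisons that share the HMSNP libraries. Against SNP100 the log2 differences of these 6 genes were 0.40, 0.62, 0.75, 0.59, 0.62 and 0.64 in that order, and against SNP50 they were 0.49, 0.56, 0.76, 0.55, 0.62 and 0.83. Mdm2, Plk2 and Trp53inp2 were the other members higher than in both nonporous groups. Against SNP100 the call was lost in 15 of 23 alternative settings for Mdm2, in 8 for Trp53inp1, in 6 for Trp53inp2 and in 4 for Btg2, and against SNP50 in 5 for Btg1. Without Control replicate 3 in the model, and with a correction for length, the split was 15 higher and 7 lower against SNP100 and 14 higher and 8 lower against SNP50, while 20.9% and 31.7% of all genes were called. With the correction and all libraries it was 11 higher and 2 lower against SNP100 and 10 higher and 4 lower against SNP50, with 6.61% and 12.6% of all genes called.

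The spread of the controls bears on all comparisons with them. When only the 6 libraries of HMSNP and Control were modelled, Plk2 (log2 fold change 1.39, adjusted p = 0.0219) was the 1 member called, and 0.439% of all genes were called. The fold changes stayed close to those with all libraries, for example 1.01 for Trp53inp1 (adjusted p = 0.154) and 0.33 for Mdm2 (adjusted p = 0.374). Over all 23 alternatives Plk2 kept its call in HMSNP, with an adjusted p of at most 0.0219. Leaving out Control replicate 3 kept all 13 calls in HMSNP and added Cdkn1a and Phlda3, and 8.66% of all genes were then called. Leaving out Control replicate 2, which left the library that stood apart, kept all 13 and added Gadd45g, Plk3, Bax and Rps27l, and 25.2% of all genes were then called. The number of members whose libraries did not overlap with Control was 10 above and 7 below in HMSNP, where 10.9% of all genes lay above and 12% below in this way.

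**Figure D5:**
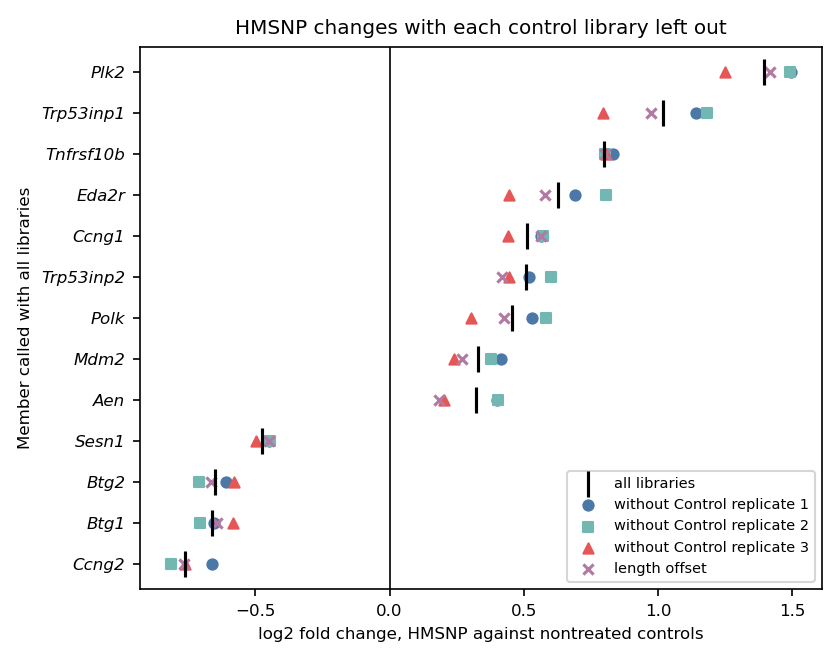
Fitted log2 fold change of HMSNP against Control (horizontal axis) for the 13 members called with all libraries, with all libraries (bars), without each control library in turn (circles, squares and triangles) and with a correction for transcript length (crosses). Every value keeps its sign. Without Control replicate 3 (triangles) Trp53inp1 moves from 1.02 to 0.79 and Polk from 0.46 to 0.30.

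Other genes of the pathway were counted from lists that hold no member. Of 20 tested genes upstream of p53, such as the damage kinases and ubiquitin ligases, none was called in HMSNP against Control in edgeR. Before adjustment 5 of them had p under 0.05, and 1 was called, lower, in DESeq2. The share of all tested genes with an unadjusted p under 0.05 was not counted. In MSNP, Chek2, Rchy1 and Sirt1 were called higher and Rpl5 lower. Of 49 other p53 targets tested, 6 were called higher and 4 lower in HMSNP, and 15 higher and 17 lower in MSNP. Over all tested genes 2.46% were called higher and 2.7% lower in HMSNP, and 11.8% and 11% in MSNP. The median log2 fold change was -0.02 in HMSNP and -0.19 in MSNP, beside -0.04 and -0.05 over all genes. Among the lower genes in HMSNP were Nupr1 at -1.62 (adjusted p = 1.35e-06), Ddit4, a stress-induced mTORC1 inhibitor, at -1.49 (adjusted p = 1.16e-07), and Fdxr at -0.50. Among the 6 higher genes, Pmaip1, which encodes the apoptosis activator Noxa, had 12.1, 10.8 and 12.0 CPM in Control and 21.01, 21.4 and 22.7 CPM in HMSNP, a log2 fold change of 0.90 (adjusted p = 1.56e-06), and Pml had 0.63 (adjusted p = 0.00140). Fdxr, Pmaip1, Pml and the 4 upstream genes were picked for mention after their values were seen.

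In MSNP the other targets with a log2 fold change of at least 1 in size included Steap3 (1.09), Fbxw7 (1.02) and Bcl2l1 (1.01), which were higher, and Lif (-1.41), Notch1 (-1.08) and Tnfaip8 (-1.08), which were lower. Gdf15, a stress cytokine gene, was also called higher (adjusted p = 0.000530), with 21, 25 and 19 counts in MSNP, 0, 1 and 4 in Control and 0, 0 and 2 in HMSNP. Of 24 cell cycle genes that p21 and the DREAM complex repress, 1 was called higher in HMSNP against Control, Mybl2 at 0.32 (adjusted p = 0.00511). None was called lower in edgeR or in DESeq2, and DESeq2 called 2 higher. Before adjustment, 6 had a positive and 3 a negative value with p under 0.05 in edgeR, and the share of all tested genes at that threshold was not counted. The median of these 24 was 0.02 in HMSNP and 0.01 in MSNP, where 3 were called higher and 5 lower. The shares of all tested genes called after adjustment were 2.46% higher and 2.7% lower in HMSNP, and 11.8% and 11% in MSNP.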

How the data were processed

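Total RNA from RAW 264.7 cells in 15 samples, 3 in each of 5 groups, was sequenced as directional poly(A) libraries. The authors deposited a table of raw counts, whole-number reads per gene and library, not normalized, mapped to GRCm39. The submitters' processing notes name cutadapt 1.16, STAR 2.7.9a and featureCounts 1.6.3. The settings and the annotation used in counting are not given in the sources used here. All 15 count columns were matched to samples by label. Doses were taken from the study's methods.

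Genes with at least 10 counts in sum were fitted in 1 model of 5 groups in edgeR 4.0.16 (R 4.3.3), with TMM normalization, the quasi-likelihood test, Benjamini-Hochberg adjustment over all tested genes and a threshold of 0.05. Standard errors are the size of the fold change (log2) divided by the root of F. CPM are TMM-normalized. Symbols and positions are from GENCODE vM39. The steps were tested on simulated counts with the same dispersion for all genes and no library that stood apart. That test does not cover a library such as Control replicate 3. Alternatives were DESeq2 1.42.0, other filters and normalization, a replicate block, a length correction (a lowess trend with a span of 0.3 as an offset), the 6 libraries of a comparison alone and each library left out. Named in full are Trp53, Cdkn1a, Mdm2, Plk2 and each member called in HMSNP against Control or MSNP. Others are given by range or group mean, and genes of other lists where called with a log2 fold change of at least 1 in size. The members and lists were chosen with earlier results of these data known. Values of 1 gene of the other lists are not reported here.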

Additional observations from a re-analysis of the deposited data

How the results depend on the processing

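The number of members called was recomputed in 23 alternative settings for 7 comparisons. With only the 6 libraries of a comparison modelled it was 0 of 34 in SNP100 and 0 in SNP50 against Control, where 0% and 0.00574% of all genes were called. In both, 5 members had an unadjusted p under 0.05 in edgeR, and DESeq2 called 5 in each with all libraries. The share of all genes with an unadjusted p under 0.05 was not counted. With the 6 libraries alone the number was 12 in MSNP and 1 in HMSNP against Control, where 13% and 0.439% of all genes were called. It was 25 in HMSNP against MSNP, 20 against SNP100 and 26 against SNP50, with 40.9%, 26.8% and 35.7% of all genes called. The last 3 models leave out the controls. DESeq2 raised the count in SNP100 from 3 to 5, and no filter on low counts lowered that in SNP50 from 5 to 3, with 0.691% of all genes called. DESeq2 also called more of all genes it tested, 3.96% in SNP100, 5.27% in SNP50 and 15.1% in HMSNP against Control. A length correction without Control replicate 3, chosen after seeing the data, gave 8 members in SNP100, 10 in SNP50, 25 in HMSNP against MSNP, 22 against SNP100 and 22 against SNP50, while 5.92%, 17.8%, 35.2%, 20.9% and 31.7% of all genes were called. The cause of these shifts was not tested.

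Leaving out 1 library at a time gave, against Control, 0 to 7 members for SNP100, 0 to 15 for SNP50, 14 to 21 for MSNP and 9 to 17 for HMSNP. It gave 12 to 25 in HMSNP against MSNP, 7 to 20 against SNP100 and 10 to 25 against SNP50. In the same order, the share of all genes called ranged from 0.29% to 5.16%, 0.443% to 18.9%, 17.4% to 33.2% and 2.51% to 25.2%, and from 16.1% to 33.9%, 2.55% to 20.4% and 3.5% to 33.1%. The highest counts came without Control replicate 3, except in HMSNP against Control, where 17 came without Control replicate 2. Among the lowest, those of the nonporous groups came without SNP100 replicate 2 (0 called, 6 at an unadjusted p under 0.05), without any 1 SNP50 library (0 called, 6 or 7 unadjusted), and, for HMSNP against Control, without HMSNP replicate 1 or 3 (9). Against SNP100 the lowest, 7, came without HMSNP replicate 1 or 3 or SNP100 replicate 3. Shares of all genes at an unadjusted p under 0.05 were not counted in these settings. Of 1679 fold changes of called members under the alternatives, 1523 kept direction and call, 156 kept direction only and 0 reversed. These members were already called in the main fit, and most settings reuse the same libraries. The 1679 values are therefore not independent checks, and reversals were unlikely from the start.

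Deviations of same-numbered libraries had correlations of -0.52 to 0.57, and 8 of 15 libraries correlated best with a library of their own number. With correlations of both signs, these values do not settle whether replicate numbers pair the samples. Against Control, a replicate block gave 3 members for SNP100, 5 for SNP50, 17 for MSNP and 12 for HMSNP. The shares of all genes called were 0.716%, 0.907%, 22.1% and 4.46%. Between HMSNP and MSNP, SNP100 and SNP50 the block gave 14, 10 and 11, with 19.2%, 3.99% and 7.93% of all genes called. Depth limits Perp and Sesn3.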
